A study of Mus musculus with 6 samples.

Results

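Messenger RNA levels of the BCL2 family were compared between the olfactory epithelium of Harlequin mice and that of their littermates. Members were the probe sets whose platform gene symbol was exactly Bcl2, Bcl2l1, Mcl1, Bax, Bak1, Bad, Bid, Bcl2l11, Bbc3 or Pmaip1. Of these 10 genes, 9 were represented, by 29 probe sets, among 18193 named genes on the array. The annotation used here paired no probe set with Bax, an effector of the family, so Bax was not analysed here. The other 9 genes all passed the filter on low signal through their brightest probe set, and 25 of their 29 probe sets passed it on their own.

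The mice were 3 hemizygous Harlequin males, Hq/Y, whose strain is given as B6CBACAw-J/A-Pdcd8-Hq/J, and 3 wild-type littermate males, +/Y, given as B6CBACa, all 6 months old, with 1 Affymetrix array per mouse. Harlequin is a mutation of the X-linked gene Aifm1 (formerly Pdcd8), which encodes apoptosis-inducing factor, and every cell of a hemizygous male carries it. The titles call the controls littermates, but the recorded strain names differ along with the genotype, and what part any difference in background has was not tested. The study looked for mechanisms by which oxidative stress leads to neurodegeneration.

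The BCL2 family decides whether the mitochondrial outer membrane is opened during apoptosis. Effector proteins such as BAX and BAK1 form pores through which cytochrome c leaves, anti-apoptotic members hold the effectors in check, and BH3-only members sense damage and either neutralise the anti-apoptotic members or activate the effectors. Olfactory sensory neurons die and are replaced throughout life, and their death uses this pathway. Many members are controlled through protein stability, phosphorylation, cleavage or splicing, none of which a probe set signal measures.

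The arrays had been scaled to a common trimmed mean of 500, and their median signals lay between 107.9 and 119.7. Aifm1 fell to 21.2% of control, from 1208 ± 69.5 (SD, n = 3) to 255.9 ± 69.0 (SD, n = 3), as the genotype labels imply (log2 fold change -2.20, SE 0.18, limma adjusted p = 0.0158; exact two-sided permutation p = 0.1, the smallest that 3 against 3 arrays allow). That call was lost without control replicate 1, 2 or 3 (adjusted p of 0.097, 0.0616 and 0.068). Markers of the tissue were bright on every array, with the neuronal marker Omp between 15892 and 18822 and the sustentacular marker Cyp2g1 between 16586 and 18072. Blood and immune markers were uneven. The summed signal of 4 red cell genes above the filter lay between 3077 and 3992 in mutants and between 754.7 and 2134 in controls. Hba-a1 and Epb42 were on the array but below the filter, and were left out. The sum of 7 neutrophil genes lay between 40856 and 58973 in mutants and between 21657 and 50184 in controls. In whole tissue, fewer cells of a type and less RNA per cell cannot be told apart.

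Across the family, no gene passed the test for a difference between the genotypes. Of 9 members, 0 passed limma at an adjusted p under 0.05 over 13219 genes, where 0.0303% of all genes did. The smallest unadjusted p of a member was 0.264, and the smallest adjusted p was 0.982. At an unadjusted p under 0.05 there were 0 of 9 members, against 4.58% of all genes. In 0 of 9 members did the 3 mutants all lie on one side of the 3 controls, against 10.4% of all genes. By mean difference 6 members were higher and 3 lower in Harlequin, where 50% of all genes were higher and 50% lower. The 3 lower ones were the anti-apoptotic genes, and the 6 higher ones were Bak1 and the BH3-only genes. These signs were not firm. With probe sets averaged per gene, Bcl2l1 (0.17) and Mcl1 (0.0041) were higher in Harlequin. The Bcl2l1 average takes in 1426050_at (log2 difference 0.39), which stayed at or below 32.9 on every array and was too dim to test. Bcl2, Bcl2l1, Bak1, Bbc3 and Pmaip1 changed sign with some single array left out. Differences were small, with a median absolute log2 difference of 0.10 for members and 0.11 for all genes tested. The median signed difference was 0.08 for members and 5.17e-05 for all genes.

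**Figure D1:**
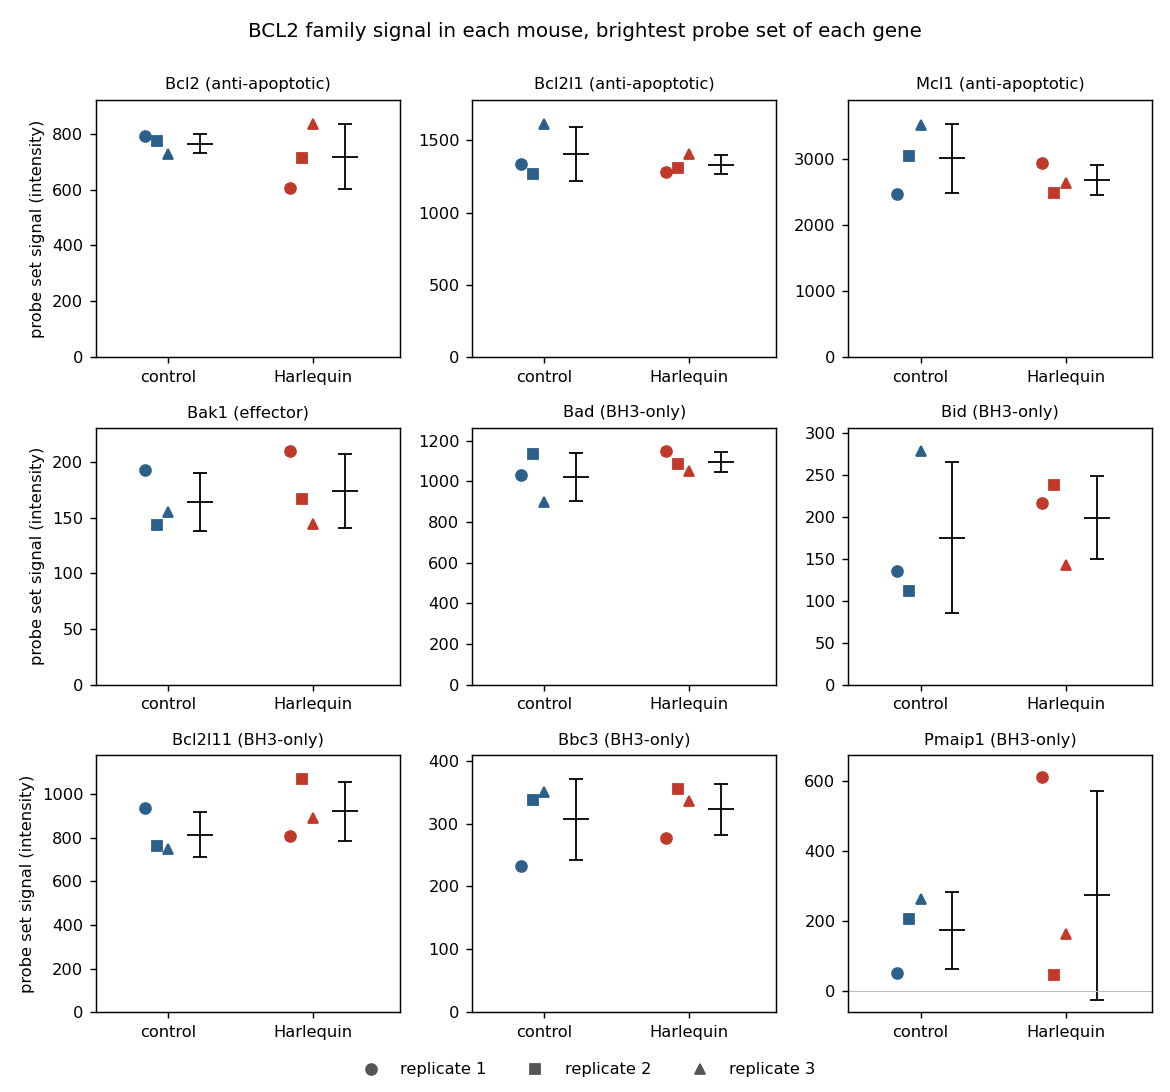
Signal of the brightest probe set (vertical axes, linear intensity; each panel has its own scale) in control (blue) and Harlequin (red) mice for 9 BCL2 family genes, with 1 symbol per mouse and the mean ± SD of 3 mice in black. The genotypes overlap in every panel, and Pmaip1 spans 46.8 to 610.4 within the Harlequin group.

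The interval around each difference shows what size these arrays could still hide. For 7 of 9 members the 95% interval lay inside a 1.5-fold difference in either direction, as it did for 67.2% of all genes tested. Bid stayed inside a 2-fold difference, and Pmaip1 did not. These intervals are those of the brightest probe sets. Other probe sets of the same genes had intervals that passed 1.5-fold, such as 0.539 to 1.09 times control for 1440770_at of Bcl2, 1.03 to 1.64 for 1420887_a_at of Bcl2l1 and 0.557 to 1.11 for 1456006_at of Bcl2l11.

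Bcl2 is the founding anti-apoptotic member and is a membrane protein of mitochondria and endoplasmic reticulum. At its brightest probe set (1457687_at) the signal was 606.0, 713.9 and 837.4 in Harlequin and 793.8, 775.1 and 727.8 in controls. Mutant mice held both the lowest and the highest value, and the controls lay between them. The log2 difference was -0.10 (SE 0.14, adjusted p = 0.982), and its 95% interval, as a percent change, ran from -24.9% to 16%. Bcl2 was the 1 gene with several probe sets for which all of them, 5 of 5, had a lower mean in Harlequin. The differences ran from -0.39 to -0.10 (log2), and the groups overlapped at each. The most negative one, 1440770_at, is also the dimmest, at 57.2, 70.5 and 80.9 in Harlequin and 80.2, 115.8 and 92 in controls. There only Harlequin replicate 3 reached into the control range, by a small margin (unadjusted p = 0.119). Probe sets of a gene read the same RNA samples and are not replicates of the condition.

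Bcl2l1 encodes BCL-XL, the anti-apoptotic protein on which many neurons and maturing red cells depend, and by splicing also a short pro-apoptotic form. Its brightest probe set (1420888_at) gave 1279.3, 1311.7 and 1403.1 in Harlequin and 1335.2, 1265.4 and 1616.1 in controls. All 6 mice were close, with control replicate 3 the highest (log2 difference -0.07, SE 0.12, adjusted p = 0.986). A second probe set, 1420887_a_at, read 872.3, 826.5 and 705.8 in Harlequin and 707.0, 524.3 and 611.6 in controls. There the mutants were higher except that Harlequin replicate 3 lay just under control replicate 1. The log2 difference was 0.38 (SE 0.15), with an unadjusted p of 0.0297 and an adjusted p of 0.985 over 27022 probe sets. The third tested probe set, 1426191_a_at, differed by -0.02, and the fourth, 1426050_at, was too dim to test. Relative to 1420888_at, 1420887_a_at was higher in Harlequin by 0.45 (log2), with values of 0.63, 0.52 and 0.20 in mutants and 0.27, -0.07 and -0.20 in controls around the control mean. The groups overlapped by this measure too, and the pair was chosen after its values were seen. The summed signal of the red cell markers (Alas2, Ermap, Slc4a1 and Car1, the lowest value being 32.2 for Car1 in control replicate 2) was higher in all 3 mutants than in any control, and its part in this difference was not tested.

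Mcl1 encodes a short-lived anti-apoptotic protein whose level can drop within hours of stress. The brightest of its 6 probe sets (1448503_at) gave 2929.6, 2485.9 and 2635.3 in Harlequin and 2460.2, 3043.0 and 3511.6 in controls. Controls were spread more widely than mutants and held both ends of the range (log2 difference -0.15, SE 0.14, adjusted p = 0.982). Its interval ran from -27.4% to 11.7%. Without control replicate 1, the lowest mouse, the difference was -0.29 with an unadjusted p of 0.0426 and an adjusted p of 0.911.

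The probe sets of Mcl1 did not move together. At 1437527_x_at the signal was 1702.0, 1785.0 and 1598.7 in Harlequin and 1410.3, 1344.9 and 1229.7 in controls, so every mutant was above every control. This was the smallest unadjusted p of any member probe set, 0.00794, at a log2 difference of 0.35 (SE 0.10), and the adjusted p was 0.985. It kept its sign with each of the 6 arrays left out, between 0.30 and 0.39. At 1456243_x_at mutants were again all higher, at 1431.6, 1423.8 and 1566.4 against 1392.9, 1204.2 and 1258.0 (log2 difference 0.20, unadjusted p = 0.093). At 1456381_x_at the order was the opposite, with every mutant below every control, at 951.7, 1000.1 and 1178.7 against 1246.6, 1189.3 and 1226.9 (log2 difference -0.23, unadjusted p = 0.077). All 3 carry the suffix _x_at, by which the manufacturer marks probe sets with probes that can also match other transcripts. The other 2 probe sets, 1416880_at and 1416881_at, differed by -0.09 and -0.06 with overlapping groups. Between 1437527_x_at and 1456381_x_at, a pair chosen after the values were seen, the log2 ratio was higher in Harlequin by 0.58, at 0.71, 0.71 and 0.32 in mutants and 0.06, 0.06 and -0.11 in controls around the control mean. A direction for Mcl1 therefore depends on the probe set, and the mean over all 6 gave a log2 difference of 0.0041.

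**Figure D2:**
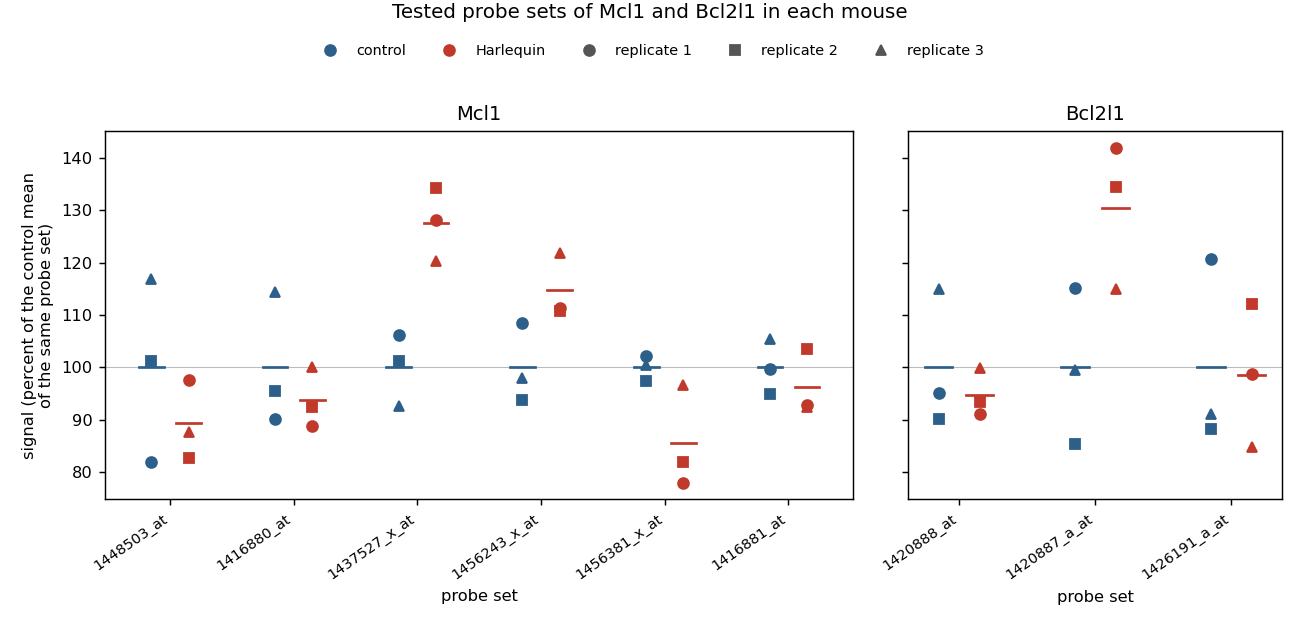
Signal of each tested probe set of Mcl1 (left) and Bcl2l1 (right) per mouse, as a percent of the control mean of that probe set; horizontal bars are group means of 3 mice. For Mcl1 the mutants lie wholly above the controls at 1437527_x_at and 1456243_x_at and wholly below them at 1456381_x_at.

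Bak1, a pore-forming effector held on the mitochondrial surface, was a dim gene here. Its main probe set (1418991_at) gave 209.7, 167.0 and 144.7 in Harlequin and 193.0, 143.2 and 155.0 in controls. Each genotype had 1 mouse that stood above its other 2, Harlequin replicate 1 and control replicate 1. The log2 difference was 0.07 (SE 0.20, adjusted p = 0.992), with an interval from -23.0% to 44.0%. The second probe set, 1425716_s_at, lay between 6.3 and 44.0 and was not tested. With Bax not analysed here, Bak1 alone stands for the effectors.

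Bad, a BH3-only sensor that growth factor signals switch off by phosphorylation, was the least variable member, with a residual SD of 0.13 (log2). Its probe set 1416583_at gave 1148.5, 1083.5 and 1051.0 in Harlequin and 1030.9, 1132.8 and 898.5 in controls. Harlequin replicate 1 lay just above control replicate 2, the other 2 mutants lay below it, and control replicate 3 was lowest (log2 difference 0.10, SE 0.12, adjusted p = 0.982). The second probe set, 1416582_a_at, gave 1118.8, 1043.6 and 1080.6 in Harlequin and 856.7, 1038.4 and 880.5 in controls. Here all mutants were above all controls, but Harlequin replicate 2 and control replicate 2 were nearly equal (log2 difference 0.23, SE 0.12, unadjusted p = 0.0823, adjusted p = 0.985). Both probe sets kept a higher mean in Harlequin with each of the 6 arrays left out, 1416583_at by only 0.017 without control replicate 3.

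Bcl2l11 encodes BIM, a BH3-only protein that is induced when neurons lose trophic support and that exists in several splice forms. The brightest of its 5 probe sets (1456005_a_at) gave 807.5, 1071.6 and 889.7 in Harlequin and 935.9, 761.6 and 750.0 in controls. Harlequin replicate 2 was highest, while control replicate 1 exceeded the other 2 mutants. Of all members it had the smallest unadjusted p, 0.264, at a log2 difference of 0.17 (SE 0.14, adjusted p = 0.982). The next probe set, 1435448_at, differed by 0.15, 1435449_at by 0.11 and 1426334_a_at by 0.11. The fifth, 1456006_at, had the opposite sign, at 90.5, 131.0 and 113.2 in Harlequin and 113.2, 177.8 and 150.0 in controls (log2 difference -0.35, unadjusted p = 0.15). The 3 genes whose centred log2 values over the 6 arrays lay closest to those of Bcl2l11 were Plekhm3, Trim35 and Cbx7, at root mean squared distances of 0.025, 0.038 and 0.044, where the median over all genes was 0.241. Their own differences were 0.20, 0.17 and 0.21, and 0 of the 3 passed limma over all genes (adjusted p = 0.981 for each, and unadjusted p above 0.05). They were picked for likeness to Bcl2l11 over the same 6 arrays, so differences and p-values like its own follow from the choice.

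Bbc3 encodes PUMA, a BH3-only target of the p53 protein. Its single probe set (1423315_at) gave 277.7, 354.6 and 335.8 in Harlequin and 232.9, 337.6 and 350.2 in controls. Control replicate 1 was the lowest mouse and Harlequin replicate 1 the next, and the other 4 mice lay close together (log2 difference 0.08, SE 0.19, adjusted p = 0.988). Leaving out control replicate 1 turned the difference to -0.09.

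Bid, the BH3-only protein that links death receptors to mitochondria once caspase-8 has cut it, was variable. Its tested probe set (1417045_at) gave 216.1, 238.7 and 143.1 in Harlequin and 135.0, 111.9 and 278.5 in controls. Control replicate 3 was the highest of the 6 mice and control replicate 2 the lowest (log2 difference 0.24, SE 0.33, adjusted p = 0.982). Without control replicate 3 the difference was 0.60 with an unadjusted p of 0.0456 and an adjusted p of 0.892, and without control replicate 2 it was 0.0014. The score of the 7 neutrophil markers, their mean log2 deviation from the average array, had the same lowest mouse, at -1.10 in control replicate 2. It was -0.39 in control replicate 1, 0.16 in control replicate 3, and 0.68, 0.49 and 0.17 in Harlequin. All 7 of these markers were higher in Harlequin by mean, and 1 of them, Chil3, passed, the only one whose groups did not overlap. In control replicate 3, the highest mouse for Bid, Chil3 read 404.8, below every mutant. The other markers were all higher there than in Harlequin replicate 3, so Chil3 did not follow them. The part of the 7 markers in the Bid values was not tested. The 2 other Bid probe sets were too dim to test.

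Pmaip1 encodes NOXA, a BH3-only protein that targets MCL1 and is induced by p53 and by other stress signals. Its single probe set (1418203_at) gave 610.4, 46.8 and 162.3 in Harlequin and 50.6, 205.1 and 262.4 in controls. Harlequin replicate 1 was 13.0 times as high as Harlequin replicate 2, against a median ratio of 1.42 between the highest and lowest array over all genes tested. The spread within genotypes, a residual SD of 1.41 (log2), lay at the 99.8th percentile of all genes tested, whose median was 0.18. The log2 difference was 0.26 (SE 0.81, adjusted p = 0.994), and the interval ran from 0.328 to 4.36 times the control level. The sign turned without Harlequin replicate 1 (-0.60) and without control replicate 1 (-0.37). The interval covers several-fold differences of either sign.

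**Figure D3:**
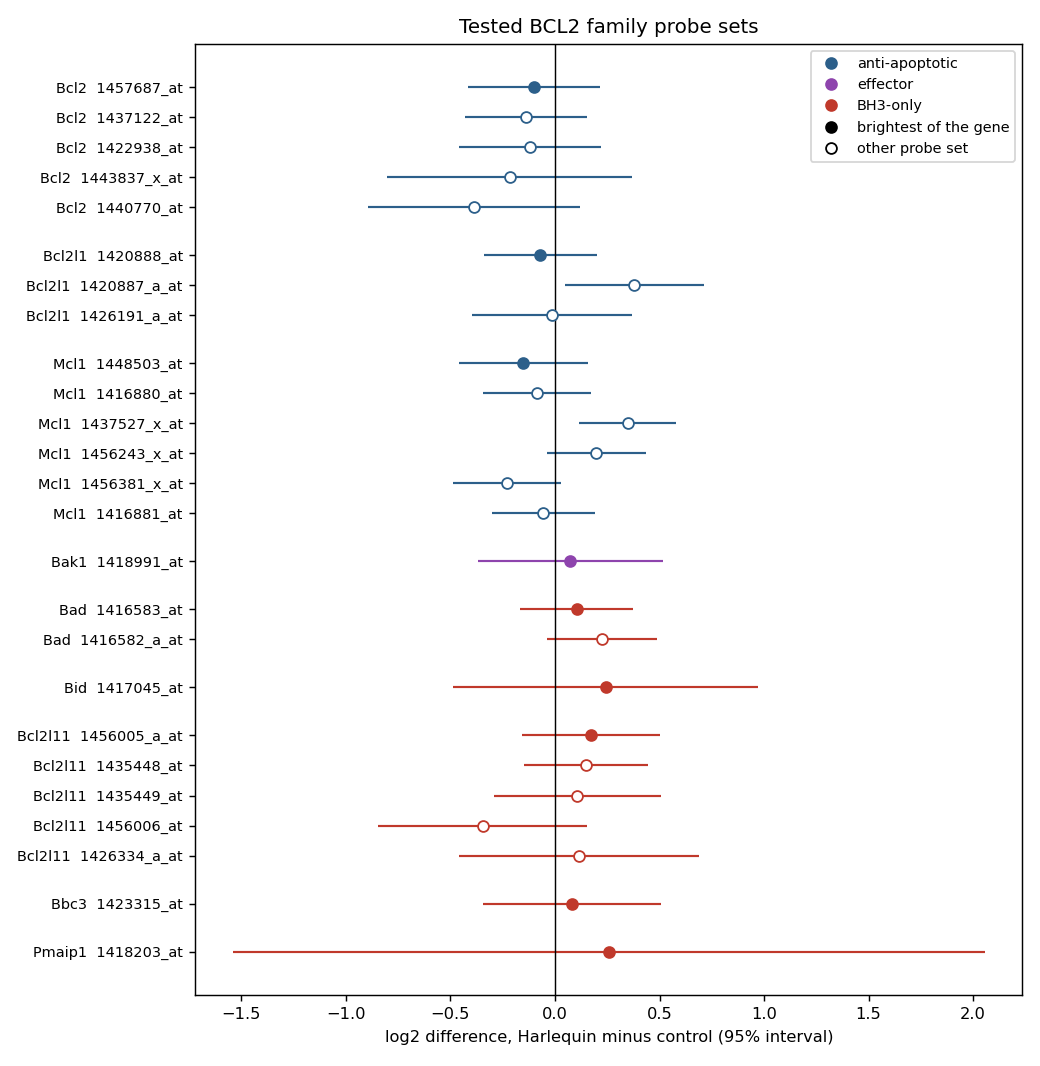
Log2 difference, Harlequin minus control, with 95% limma intervals for the 25 tested member probe sets, grouped by gene; filled symbols mark the brightest probe set of each gene and colours the role in apoptosis. Points fall on both sides of 0, and the interval leaves out 0 at 1420887_a_at of Bcl2l1 and 1437527_x_at of Mcl1 before adjustment for the number of tests.

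Counted by probe set, 13 of the 25 tested were higher and 12 lower in Harlequin, against 49.1% higher among all probe sets. Of the 25, 0 passed at an adjusted p under 0.05 in limma, where 0.0259% of 27022 probe sets did. At an unadjusted p under 0.05 there were 2 of 25, against 4.7% of all probe sets, and in 4 of 25 the genotypes did not overlap, against 10% of all. These 4 were 3 of Mcl1 and 1 of Bad. Probe sets pointing both ways within a gene were common on the array. They were found in 3 of the 5 members with 2 or more tested probe sets (Bcl2l1, Mcl1 and Bcl2l11) and in 51.8% of 6145 such genes on the array.

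By role, the mean log2 deviation of the 3 anti-apoptotic genes was -0.11, -0.10 and 0.04 in Harlequin and -0.04, 0.02 and 0.18 in controls. That of the 5 BH3-only genes was 0.39, -0.11 and -0.02 in Harlequin and -0.41, -0.05 and 0.20 in controls. In both roles the genotypes overlapped. Pmaip1 itself deviated by 1.84, -1.48 and 0.03 in Harlequin and -1.39, 0.34 and 0.67 in controls. Without Pmaip1, a setting chosen after its values were seen, the score was 0.03, 0.23 and -0.04 in Harlequin and -0.17, -0.14 and 0.08 in controls, still with overlap. The median log2 difference was -0.10 over the anti-apoptotic genes (-0.04 without Harlequin replicate 1 and -0.03 without control replicate 3) and 0.17 over the BH3-only genes (0.11 without Harlequin replicate 2 or control replicate 1). The sign of the anti-apoptotic median rests on the choice of probe set, since it was 0.0041 when the probe sets of each gene were averaged. At that setting the BH3-only median was 0.08. The averages include probe sets too dim to test, among them those of Bcl2l1 and Bid.

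Leaving out 1 mouse at a time tested how far single animals carried these signs. Mcl1, Bad, Bid and Bcl2l11 kept the sign of their mean difference in all 6 cases at their brightest probe sets. The margin was small, with values nearest 0 of 0.0014 for Bid, 0.017 for Bad, -0.031 for Mcl1 and 0.061 for Bcl2l11. Bcl2, Bcl2l1, Bak1, Bbc3 and Pmaip1 changed sign at least once. In 0 of these cases did a member pass over all genes in limma, and an unadjusted p under 0.05 was reached for Mcl1 without control replicate 1 and for Bid without control replicate 3.

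**Figure D4:**
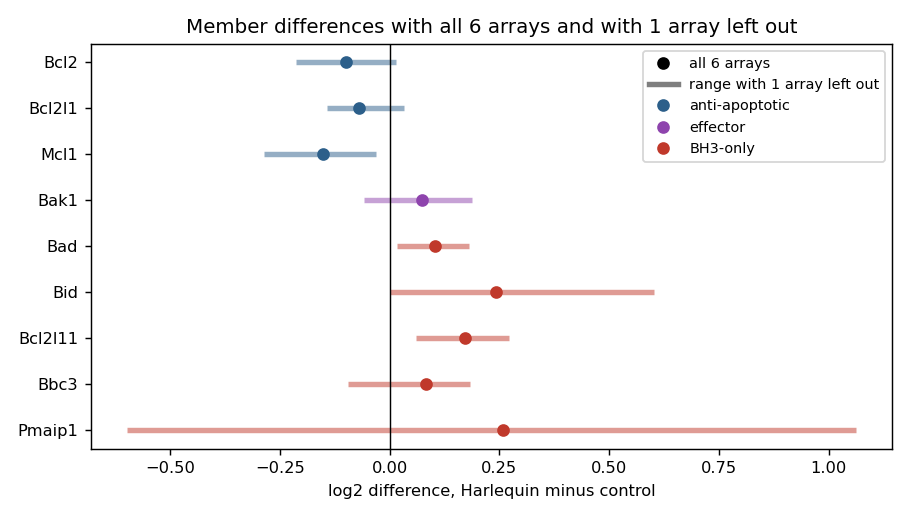
Log2 difference, Harlequin minus control, of each member at its brightest probe set with all 6 arrays (points) and its range when each array was left out in turn (bars), coloured by role. The bar of Pmaip1 runs from -0.60 to 1.06. Those of Mcl1, Bad, Bid and Bcl2l11 stay on 1 side of 0, that of Bid only just (0.0014).

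Genes that act around the family were examined as 4 lists. Of the 48 genes tested in them, 0 passed over all genes in limma, against 0.0303% of all genes tested. At an unadjusted p under 0.05 there was 1 of 48, against 4.58% of all genes tested. Among 16 other relatives of BCL2, 9 were tested, 5 higher and 4 lower, with a median log2 difference of 0.02. Bmf, a BH3-only gene that answers loss of cell attachment, had the smallest unadjusted p of them, 0.0999, with mutants at 434.5 ± 49.2 and controls at 524.0 ± 59.0 (SD, n = 3). The anti-apoptotic Bcl2l2 (BCL-W) differed by 0.22, at 2259.2, 3199.3 and 2820.3 in Harlequin and 2370.1, 2216.5 and 2438.1 in controls, so that 2 of 3 mutants exceeded every control. The neuronal BH3-only gene Hrk differed by 0.22 and Bcl2l13 by 0.11, both with overlap.

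Of the genes of outer membrane channels and binding partners, 10 were tested, with a median difference of 0.0086. Vdac3, a channel of the outer membrane, was higher in all 3 mutants, at 5699.4, 5301.0 and 5214.2 against 5086.5, 4710.5 and 4848.0 (log2 difference 0.15, unadjusted p = 0.0856, adjusted p = 0.981). Becn1, an autophagy protein that BCL2 binds, was lower in all 3 mutants, at 3608.6, 3661.6 and 3802.3 against 3939.8, 4090.4 and 4058.1 (-0.13, unadjusted p = 0.118, adjusted p = 0.981). Vdac2, which holds BAK1 at the membrane, differed by 0.07, and Fkbp8, a membrane anchor of BCL2, by -0.07. Groups did not overlap in 2 of the 10 genes, against 10.4% of all genes tested.

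Downstream of the pores, 11 genes of the apoptosome and caspases were tested, 4 higher and 7 lower, with a median of -0.07. Cycs, cytochrome c itself, differed by -0.16 (unadjusted p = 0.0977) with overlapping groups. The caspase inhibitor Xiap was lower in all 3 mutants, at 2448.7, 2356.5 and 2254.0 against 2578.9, 2637.2 and 2555.2 (-0.14, unadjusted p = 0.123). Of its mitochondrial antagonists, Htra2 was higher in all 3 mutants (0.20) and Diablo lower in all 3 (-0.13). Each of these 4 genes had an adjusted p of 0.981, and they were described for having the smallest p of the list. Groups did not overlap in 3 of the 11 genes, against 10.4% of all genes tested.

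Among regulators of family genes and proteins, 18 were tested, 11 higher and 7 lower, with a median of 0.0083. The 4 with the smallest unadjusted p were transcription factors or a p53 target, and in each the genotypes did not overlap, as in 5 of the 18 genes of the list and in 10.4% of all genes tested. Foxo3, which can induce Bcl2l11 and Bbc3, gave 2201.3, 2301.9 and 2168.4 in Harlequin and 1901.2, 1654.3 and 2022.1 in controls (log2 difference 0.26, SE 0.10, unadjusted p = 0.0309, adjusted p = 0.981). Its relative Foxo1 lay the other way, at 842.5, 1034.9 and 1070.3 against 1189.1, 1110.5 and 1202.6 (-0.25, unadjusted p = 0.0669). The p53 target Cdkn1a gave 2436.8, 2183.7 and 2055.7 against 1971.8, 2017.0 and 1608.7 (0.26, unadjusted p = 0.0602). Atf4, the transcription factor of the integrated stress response, gave 5354.7, 5162.8 and 4890.1 against 4558.9, 4674.8 and 4691.9 (0.14, unadjusted p = 0.0792). None of these 4 passed over all genes, with an adjusted p of 0.981 for each. Foxo3 was the 1 gene of the list with an unadjusted p under 0.05.

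**Figure D5:**
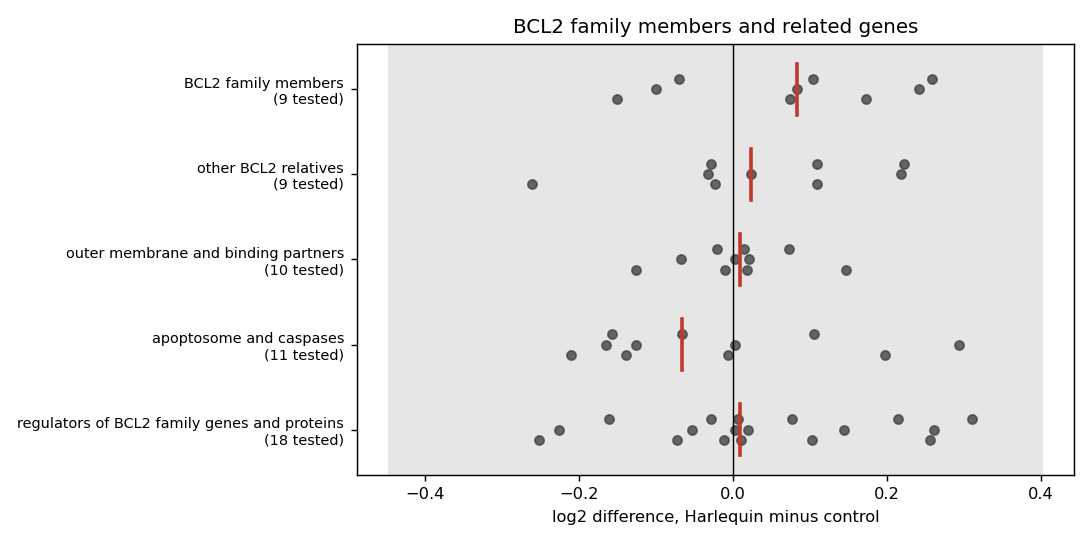
Log2 differences, Harlequin minus control, of the BCL2 family members and of 4 lists of related genes (1 point per gene, red line the median); the grey band holds the middle 95% of all genes tested, from -0.45 to 0.40. All members at their brightest probe sets and all listed genes lie inside the band.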

How the data were processed

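The authors deposited 1 linear intensity per probe set and array, which the values show to be scaled to a trimmed mean of 500. The software behind them is not given in the sources used here. Intensities were analysed as log2(value + 16), and fold changes on this scale understate those of dim genes. Each gene was represented by its probe set with the highest mean log2 value. Genes were kept above the 40th percentile of 45037 non-control probe sets (a signal of 61.1). The genotypes were compared with limma 3.58.1 in R 4.3.3, with an intensity trend in the variance and two-sided p-values adjusted over all genes, or all probe sets, by the Benjamini-Hochberg method. The titles call the arrays of a group biological replicates.

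Members, lists and tests were chosen with earlier results of these data known. Described genes are all members, Aifm1, in each list up to 4 genes with the smallest p, the 3 nearest profiles of the member with the smallest p, and markers (Omp, Cyp2g1, Chil3, Alas2, Ermap, Slc4a1 and Car1). Rac2, Fermt3, AB124611, Aox3, Krt15, Aldh3a1 and the Bcl2a1 copies were named after their values were seen. The fit was tested on simulated data, 10 sets made like the Harlequin against control comparison with 13219 genes, 200 of them shifted. It recovered 66.7% of shifts of 1 (log2), 92.5% of shifts of 2 and 98% of shifts of 3, and 3.92% of its calls were false. No shift as small as the member differences, 0.26 at most, was simulated. With 200 genes shifted, the adjusted threshold is also easier to reach than in the data, where 4 genes passed. These rates therefore do not give the power for the members. Alternatives were other pseudocounts, filters, normalizations, variance models and probe set summaries, a block on replicate number, and leaving out each array. Figures were drawn with matplotlib 3.10.9 in Python 3.11.15.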

Additional observations from a re-analysis of the deposited data

How the results depend on the processing

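With 3 mice per genotype, the number of arrays limits every estimate. No member and no member probe set passed in limma under any alternative run (18 for genes, 17 for probe sets), with 0 to 1 members at an unadjusted p under 0.05. The number of genes changed, 4, became 0 without an intensity trend (643 at an unadjusted p under 0.05), and was 0 to 3 with 1 array left out. Aifm1 differed by -2.20 without the trend (adjusted p = 0.0887), and by -2.40 to -2.08 with 1 array left out. With the replicate number as a block, 0 genes passed (541 at an unadjusted p under 0.05) and Aifm1 differed by -2.20 (adjusted p = 0.0605). Correlations across genes between the deviations of same-numbered mice were -0.237, -0.0298 and 0.0582, and those of differently numbered mice ran from -0.245 to 0.3. Deviations were taken within groups of 3 mice, so these values cannot show whether the numbers pair the mice. The titles do not say. When probe sets were averaged per gene, Bcl2l1 differed by 0.17, Mcl1 by 0.0041, and the anti-apoptotic median was 0.0041. The average for Bcl2l1 included its probe set that was too dim to test. With 1 array left out, Bcl2 ran from -0.21 to 0.015, Bcl2l1 from -0.14 to 0.033, Bak1 from -0.058 to 0.19, Bbc3 from -0.094 to 0.18 and Pmaip1 from -0.60 to 1.06. At the 60th percentile filter Bak1, Bid and Pmaip1 were not tested. The change of Bax relative to Bcl2 and the probe set fit on means over probe sets were not run. The cause of these differences between settings was not tested.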

Other observations

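The A1 proteins, anti-apoptotic relatives found mainly in blood cells, come from near-identical Bcl2a1 copies that the array cannot separate. The brightest of their 3 probe sets (1419004_s_at), which names Bcl2a1a, Bcl2a1b and Bcl2a1d, gave 307.2, 207.2 and 208.8 in Harlequin and 214.5, 138.3 and 129.0 in controls (log2 difference 0.55, 95% interval -0.0096 to 1.11). Control replicate 1 lay just above the 2 lower mutants. The other 2 probe sets stayed at or below 34.9 on every array. Neutrophil, macrophage, B and plasma cell and red cell marker scores were also higher in Harlequin by mean. The macrophage score overlapped between the genotypes. The B and plasma cell, red cell and neutrophil scores did not, the last narrowly (lowest mutant 0.166, highest control 0.158). Of the 7 neutrophil markers, 1, Chil3, had groups that did not overlap. The others were all higher in control replicate 3 than in Harlequin replicate 3, and the summed neutrophil signal overlapped. The separation of the neutrophil score therefore rests on Chil3. The part of these cells in the Bcl2a1 signal was not tested.

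The nearest profiles of Bid and Pmaip1 were looked up after the values of these genes were seen. The closest to Bid over the 6 arrays were AB124611, the blood cell GTPase gene Rac2 and the blood cell integrin activator gene Fermt3, at root mean squared distances of 0.080, 0.092 and 0.101. Rac2 gave 348.6, 326.5 and 224.3 in Harlequin and 205.9, 160.1 and 372.1 in controls, with the same highest and lowest mouse as Bid. That match follows from picking genes for likeness to Bid over these arrays. The part of blood cells in the Bid values was not tested.

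The closest to Pmaip1 were Aox3, the basal keratin gene Krt15 and the aldehyde dehydrogenase gene Aldh3a1, at larger distances of 0.327, 0.499 and 0.538. Krt15 gave 3600.4, 411.9 and 569.8 in Harlequin and 159.4, 1348.3 and 1257.5 in controls. Aldh3a1 gave 7980.5, 2106.5 and 2181.0 in Harlequin and 1453.3, 2799.9 and 3987.1 in controls. Harlequin replicate 1 was the highest mouse for Pmaip1, Aox3, Krt15 and Aldh3a1 alike. These genes were picked for likeness to Pmaip1 over the same 6 arrays, so a shared highest mouse follows from the choice.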
